A study of Callithrix jacchus with 20 samples.

Results

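The data set 4 nuclear transfer embryonic stem cell lines whose donor fibroblasts carried a green fluorescent protein transgene under the ubiquitous CAG promoter (ntESC GFP #24, #50, #54 and #55) against 3 lines made in the same way from wild-type fibroblasts (ntESC WT #30, #53 and #61). The 7 lines were taken by their genotype labels and are 7 of the 20 libraries of the series. All came from the common marmoset, Callithrix jacchus. Ear-skin fibroblasts were fused with enucleated oocytes, so that a line has the nuclear genome of its fibroblast donor and mitochondria that come mainly from the oocyte. GFP and WT embryos alike received 10 pL of mouse Kdm4d mRNA at 1500 ng/µL, 25 nM trichostatin A for 8 h and 1 µM of a G9a inhibitor for 24 h, and both groups of lines were grown without feeder cells with 4 ng/mL bFGF. Each line is the outgrowth of a single blastocyst and gave 1 library. Lines of a group may share a donor animal, and which animal gave which line is not given in the sources used here. The transgene, the donor animal and that animal's sex therefore cannot be told apart in this comparison, and a p-value here takes the variation from line to line as its only error. The gene table has 0 rows for the transgene itself, so its level could not serve as a check of the labels.

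In nuclear transfer, an egg's cytoplasm resets the chromatin of a differentiated cell. Histone H3 lysine 9 methylation inherited from the donor cell is a known barrier to this reset: Kdm4d removes the mark, the G9a inhibitor blocks an enzyme that lays it down, and trichostatin A inhibits histone deacetylases. Cultures of primed stem cells also hold a varying share of cells that have begun to differentiate, and in bulk RNA fewer cells of a type and less RNA per cell cannot be told apart.

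Expression was deposited as TPM (a share of a library corrected for gene length, scaled to a fixed sum). Of 22330 genes, 16212 had a mean of at least 0.5 TPM over the 7 lines and were tested. TPM keeps no total depth, so the read number behind a value is unknown. From the steps between low values, the depth relative to WT #61 was 0.793 (#54) to 1.07 in the GFP lines and 0.860 to 1 in the WT lines. The 4 fertilization-derived control ESC lines (#13, #15, #17 and #37), the donor fibroblast culture of a wild-type animal and the embryoid bodies (EBs) grown from 5 of the 7 lines were used only to place the results. Values of single lines are given in the order #24, #50, #54 and #55 for GFP and #30, #53 and #61 for WT.

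By POU5F1, set against the fibroblasts, the pluripotent label held in all 7 lines, while several pluripotency markers were lower in WT #30 and #53. POU5F1, the core transcription factor of pluripotent cells, was at 3364, 2131, 2539 and 2460 TPM in the GFP lines, against 2124, 1176 and 2413 TPM in the WT lines and 0.460 TPM in the fibroblasts. The control lines, at 3233 to 3691 TPM, were above every ntESC line except GFP #24. EPCAM, an epithelial surface protein of stem cells, was at 1176 to 1809 TPM in GFP and 1017 to 1545 TPM in WT lines. The labelled groups were less uniform than these markers. TDGF1, also a pluripotency marker, was at 197, 491 and 1424 TPM in WT lines, against 982 to 1625 TPM in GFP and 1138 to 1511 TPM in control lines. DNMT3B was at 97.1, 136 and 465 TPM in WT lines, against 308 to 599 TPM in GFP and 253 to 549 TPM in control lines. PODXL went the other way in WT #30, at 991 TPM, against 468 to 804 TPM in GFP lines. NANOG, the partner of POU5F1, was at 738, 673, 1424 and 939 TPM in GFP lines, against 131, 328 and 822 TPM in WT lines, and DCN, which encodes the connective tissue proteoglycan decorin, was at 1.86, 97.0, 0.833 and 2.34 TPM in GFP lines, against 808, 454 and 3.22 TPM in WT lines. WT #61 lay within the GFP range for both genes, while WT #30 and WT #53 lay outside it for both. Neither gene passed the test between the groups (log2 difference 1.46, adjusted p = 0.257 for NANOG, and −4.55, adjusted p = 0.306 for DCN, from limma).

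The same split ran through the whole transcriptome. The first principal component held 55.1% of the variance of log2(TPM + 0.1) and placed GFP #54, #55, #24 and #50 at −69.9, −56.2, −40.0 and −1.92, against 109.5, 85.1 and −26.7 for WT #30, #53 and #61. Euclidean distances between GFP lines were 77.5 to 114 (mean 97.3) and those between WT lines 113 to 166 (mean 141). WT #61 was 94.1 to 119 from the GFP lines, nearer than it was to WT #30 (166) and WT #53 (143). These 2 WT lines were 121 to 195 from the GFP lines. What leaving out WT #61, or WT #30 and #53, does to the calls and list medians is given with the counts of genes and lists.

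**Figure D1:**
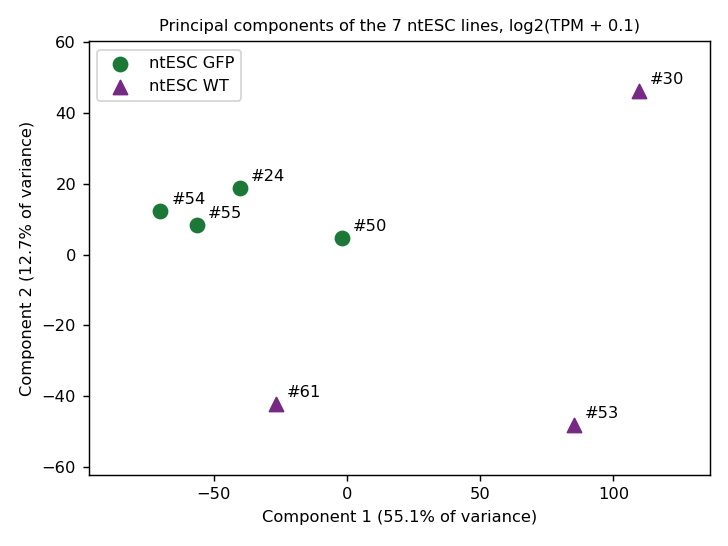
The 7 ntESC lines on the first and second principal components of centred log2(TPM + 0.1), in arbitrary units, with GFP lines as green circles and WT lines as purple triangles. WT #30 and #53 lie at 109.5 and 85.1 on the first component, and WT #61 at −26.7 lies among the GFP lines, which run from −69.9 to −1.92.

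Between the groups, 57 genes passed the test (limma, Benjamini-Hochberg adjusted p below 0.05), which is 0.352% of the genes tested. Of these, 46 (0.284%) were higher and 11 (0.0679%) lower in GFP lines. At an unadjusted p below 0.05 there were 2894 genes (17.9%), of which 1668 (10.3%) were higher and 1226 (7.56%) lower in GFP lines. The median log2 difference of all genes was 0.01. All 57 called genes had GFP and WT values that did not overlap, which held for 2204 of all genes tested (13.6%, with all GFP values above WT in 8.75% and below in 4.85%). In the 49 called genes with neither group at 0 in all its lines, log2 differences ran from 0.90 to 7.92 upward (median 3.13) and from −1.01 to −5.34 downward (median −2.37). The called genes were mostly low, with a mean below 10 TPM over the 7 lines in 38 of 57.

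The count depends on which lines are in the fit. Without WT #61, 2964 genes were called (18.3%, with 1507 or 9.3% higher and 1457 or 8.99% lower in GFP lines, all 57 among them). With limma's array weights 5153 were called. These weights were lowest for WT #61 (0.289), WT #30 (0.435) and GFP #54 (0.480), and highest for GFP #55 (3.14) and WT #53 (2.80). Without both WT #30 and WT #53, an alternative chosen after seeing the data that leaves 1 WT line and takes its spread from the GFP lines, 33 were called, 12 of them among the 57. Of the 57 genes, 16 were called whichever single line was left out, and 20 were called only when that line was WT #61.

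Among the 57 were 16 genes with a symbol, 13 higher and 3 lower in GFP lines, and the remaining 41 (71.9%, against 21.8% of all genes tested) had only a LOC identifier. Of the 16, ITIH1 and BOLA1 were called whichever line was left out, and each of the other 14 lost the call without at least 4 of the 7 lines. Without both WT #30 and WT #53, BOLA1 was the only symbol still called. The other 15 had adjusted p = 0.0567 to 0.436 (limma), and all 16 kept their sign.

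PIWIL1, RBM44 and PRSS21, all higher in GFP lines, are known from germ cells. PIWIL1, an Argonaute protein that binds piRNAs and silences transposons in germ cells, was at 20.0, 24.4, 31.2 and 21.4 TPM in GFP lines, against 1.20, 2.92 and 5.26 TPM in WT lines. Every GFP line was far above the highest WT line, with a log2 difference of 3.12 (standard error 0.44, adjusted p = 0.0381). In the control ESC lines it was at 4.92 to 10.1 TPM, below every GFP line and overlapping the highest WT line. RBM44, an RNA-binding protein that in mouse is found in the bridges between germ cells, was at 10.9, 18.2, 37.1 and 17.6 TPM in GFP lines, against 2.58, 1.64 and 2.58 TPM in WT lines (log2 difference 3.04, standard error 0.40, adjusted p = 0.0313). PRSS21, the membrane serine protease testisin of male germ cells, was at 0.543, 1.67, 1.52 and 1.87 TPM in GFP lines and was listed at 0 in all 3 WT lines (adjusted p = 0.0374). Its level was low in every line, and control ESC lines were at 0 to 0.616 TPM.

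ITIH1, ITGAM, AMBN, RP1L1 and NUGGC, best known from differentiated tissues, were also higher in GFP lines, each at a low level. ITIH1, a heavy chain of the inter-alpha-trypsin inhibitors that liver secretes and that bind hyaluronan, was at 1.75, 2.16, 4.02 and 2.89 TPM in GFP lines and listed at 0 in the 3 WT lines, the 4 control ESC lines and the fibroblasts (adjusted p = 0.0049). It was thus above 0 in the GFP lines and in no other library of the stem cell table. ITGAM, the integrin alpha-M chain of myeloid cells, was at 4.49, 4.21, 9.04 and 8.66 TPM in GFP lines, against 0.0327, 0.163 and 0.365 TPM in WT lines (log2 difference 4.64, standard error 0.52, adjusted p = 0.0157). Control #15 resembled the GFP lines with 4.69 TPM, while the other control lines were at 0.135 to 0.809 TPM. AMBN, the enamel matrix protein ameloblastin, was at 13.7, 7.60, 21.3 and 11.9 TPM in GFP lines, against 1.71, 1.63 and 1.88 TPM in WT lines (log2 difference 2.80, standard error 0.34, adjusted p = 0.0228). RP1L1, a protein of the photoreceptor axoneme, was at 1.17 to 1.39 TPM in GFP lines and 0.0654 to 0.107 TPM in WT lines (log2 difference 2.88, adjusted p = 0.0313). NUGGC, a nuclear GTPase of germinal centre B cells, was at 0.727 to 1.74 TPM in GFP lines and 0 to 0.0194 TPM in WT lines (log2 difference 3.42, adjusted p = 0.0381).

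Genes with wider or secretory roles were also higher in GFP lines. MTSS1, which bends the plasma membrane and binds actin, was at 27.1, 22.5, 30.3 and 24.4 TPM in GFP lines, against 4.88, 6.82 and 9.21 TPM in WT lines (log2 difference 1.93, standard error 0.23, adjusted p = 0.0228), and the control lines, at 8.88 to 10.3 TPM, lay near WT #61. BOLA1, a mitochondrial protein of iron-sulfur cluster and glutaredoxin biology, was at 64.7, 58.1, 66.9 and 57.9 TPM in GFP lines, against 22.8, 14.8 and 18.5 TPM in WT lines (log2 difference 1.74, standard error 0.16, adjusted p = 0.0054). The control lines, at 18.5 to 22.4 TPM, fell in the WT range. NPW, the precursor of neuropeptide W, was at 2.84 to 3.84 TPM in GFP lines and 0.793 to 0.909 TPM in WT lines (log2 difference 1.88, adjusted p = 0.0381). CNFN, the cornified envelope protein cornifelin, was at 5.28 to 9.02 TPM in GFP lines and 1.58 to 1.81 TPM in WT lines (log2 difference 1.83, adjusted p = 0.0396). For CNFN the control lines, at 4.34 to 6.40 TPM, were nearer the GFP lines. TSTD1, a small sulfurtransferase-like protein, was at 19.9 to 21.9 TPM in GFP lines and 9.18 to 11.7 TPM in WT lines (log2 difference 0.98, adjusted p = 0.0440).

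Of the genes with a symbol, OGFOD1, GSTZ1 and S100P were called lower in GFP lines. OGFOD1, the prolyl hydroxylase of a small ribosomal subunit protein, was at 19.4, 21.4, 20.9 and 19.2 TPM in GFP lines, against 40.3, 46.9 and 36.1 TPM in WT lines (log2 difference −1.01, standard error 0.13, adjusted p = 0.0313). The 4 control lines, at 38.2 to 42.1 TPM, and the fibroblasts, at 41.6 TPM, sat with the WT lines. GSTZ1, the maleylacetoacetate isomerase of tyrosine breakdown, was at 8.26 to 8.99 TPM in GFP lines and 16.1 to 22.7 TPM in WT lines (log2 difference −1.21, standard error 0.17, adjusted p = 0.0384). Control lines were at 1.74 to 12.3 TPM, so here it was the WT lines that stood above all other stem cell lines. S100P, a calcium-binding protein of placenta and epithelia, was at 0, 0.214, 0 and 0 TPM in GFP lines, against 3.05, 1.72 and 3.43 TPM in WT lines (log2 difference −4.36, standard error 0.58, adjusted p = 0.0313).

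**Figure D2:**
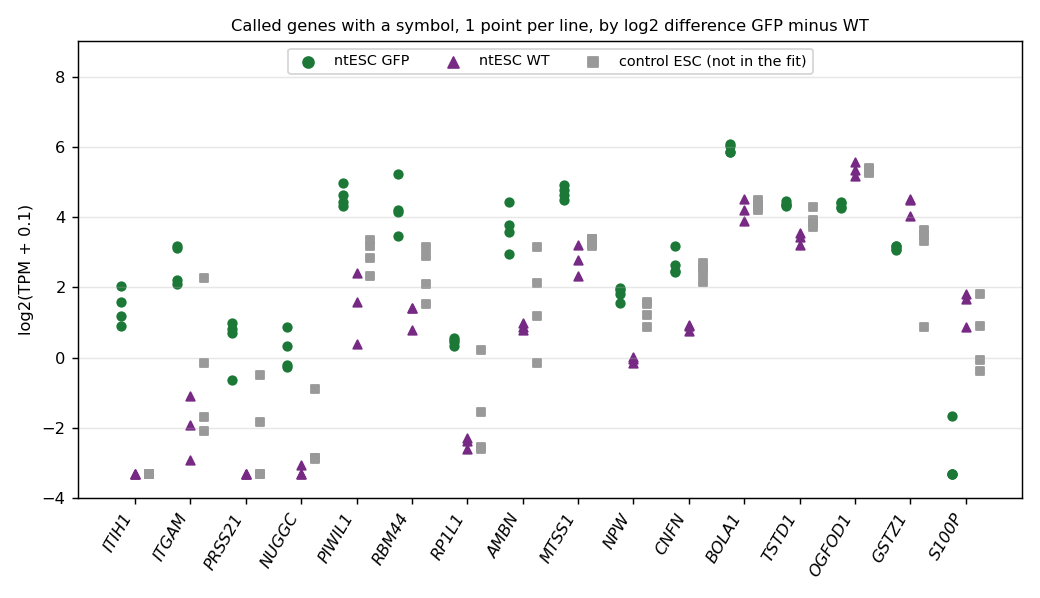
The 16 called genes with a symbol, ordered by log2 difference, on a log2(TPM + 0.1) axis with 1 point per line (GFP green circles, WT purple triangles, control ESC grey squares, which were not in the fit). GFP and WT points do not overlap for any of them, from ITIH1, at 0 in all WT lines, to S100P, at 0 in 3 of 4 GFP lines.

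The LOC genes held the widest gaps. By the RefSeq annotation of assembly calJac240_pri, the 57 called genes included 26 protein-coding genes, 15 pseudogenes (26.3%, against 3.10% of all genes tested), 3 snoRNAs, 1 snRNA and 1 lncRNA, and 11 identifiers had no match there. Reads with more than 1 location had been dropped and 1 mismatch allowed, so the levels of pseudogenes and other near-identical copies are uncertain.

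LOC100415027, a transcribed pseudogene, had the largest log2 difference, 7.92 (standard error 0.31, adjusted p = 5.1e-05), with 37.0, 79.5, 81.6 and 58.9 TPM in GFP lines, against 0.161, 0.160 and 0.138 TPM in WT lines. The control lines split in the same way, with 47.0 TPM in #13 and 48.0 in #37 but 0.361 in #15 and 0.385 in #17. LOC100411089, annotated as protein coding, was at 12.0, 12.6, 11.7 and 12.1 TPM in GFP lines, against 0.225, 0.225 and 0 TPM in WT lines (log2 difference 5.80, standard error 0.45, adjusted p = 0.0023), and it too split the controls (20.7 TPM in #15 and 9.63 in #17, but 0.182 in #13 and 0 in #37). LOC100391425, without a match in RefSeq, was at 1.32, 5.72, 9.47 and 7.08 TPM in GFP lines and listed at 0 in the WT lines, the control lines and the fibroblasts (adjusted p = 0.0205).

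The gene with the lowest p, picked for description after its values were seen, was LOC100401954, a protein-coding gene by its annotation. It was at 126, 101, 99.7 and 112 TPM in GFP lines, against 1.81, 2.57 and 2.60 TPM in WT lines (log2 difference 5.51, standard error 0.17, adjusted p = 2.0e-05). The control lines, at 1.59 to 3.76 TPM, and the fibroblasts, at 2.56 TPM, were at the WT level, so that of the 12 libraries of the stem cell table the 4 GFP lines alone were high. LOC118152790, also picked afterwards, was at 164, 135, 130 and 143 TPM in GFP lines, against 74.1, 74.8 and 76.5 TPM in WT lines (log2 difference 0.92, standard error 0.11, adjusted p = 0.0201). Control lines took 1 of 2 levels for this gene, 4.06 and 5.38 TPM in #13 and #15, or 78.5 and 79.5 TPM in #17 and #37.

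Downward, LOC118145336, a snoRNA by its annotation, was listed at 0 in all 4 GFP lines and at 4.35, 4.34 and 5.61 TPM in WT lines (adjusted p = 0.0011). LOC118153924 was at 0.491, 0, 0.661 and 0.282 TPM in GFP lines, against 8.84, 17.0 and 20.4 TPM in WT lines (log2 difference −5.34, standard error 0.71, adjusted p = 0.0313). LOC100387026, a transcribed pseudogene, was at 0.183 to 0.477 TPM in GFP lines and 6.80 to 8.96 TPM in WT lines (log2 difference −4.26, standard error 0.39, adjusted p = 0.0049), and of the control lines only #15 had the WT level, with 7.82 TPM. Few genes were fully on in one group and off in the other: 9 were at 1 TPM or more in every GFP line and under 0.1 TPM in every WT line, 1 (LOC118145336) had the reverse pattern, and 8 of these 10 were called. The 2 that missed were LOC100392829 (3.19, 2.51, 70.4 and 6.42 TPM in GFP lines, 0 in WT lines, adjusted p = 0.0729) and LOC118146460 (1.09, 1.09, 8.05 and 1.88 TPM in GFP lines, 0 in WT lines, adjusted p = 0.0650), each with a far higher value in GFP #54.

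The EBs, aggregates in which the same lines had differentiated, gave a second set of libraries for GFP #24 and #50 and for WT #30, #53 and #61. They are new libraries of the same lines, not new lines, and no test was run on them. Of the 57 genes, 54 were in the EB table, and 53 (98.1%) had a difference of the same sign there, against 63.3% of all genes. In 43 (79.6%, against 11.4% of all genes) both GFP EBs lay beyond all 3 WT EBs in the stem cell direction, and in 0 in the opposite direction. Over all 54 genes, the median EB log2 difference, counted in the stem cell direction, was 2.60. LOC100401954 was at 115 and 128 TPM in ntEB GFP #24 and #50, against 3.50, 3.71 and 3.29 TPM in the WT EBs, and OGFOD1 was at 20.1 and 20.9 TPM in GFP EBs, against 43.9, 35.4 and 33.3 TPM in WT EBs. Both kept nearly their stem cell levels. MTSS1 was at 30.8 and 21.7 TPM in GFP EBs, against 9.14, 18.9 and 3.91 TPM in WT EBs.

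In the other 11 genes the EB values overlapped, and in 9 of these ntEB GFP #24 was beyond all WT EBs while ntEB GFP #50 was not. ITGAM was at 2.71 and 0.160 TPM in GFP EBs #24 and #50, against 0, 0.201 and 0.0254 TPM in WT EBs, and AMBN at 25.3 and 0.819 TPM, against 1.12, 1.16 and 3.15 TPM in WT EBs. PIWIL1, whose EB values did not overlap, was at 16.5 TPM in ntEB GFP #24 but 0.372 TPM in #50, against 0.0122 to 0.119 TPM in WT EBs. Beside these values, NANOG was at 831 TPM in ntEB GFP #24 and 15.0 TPM in #50, against 0.0761 to 0.482 TPM in the WT EBs, and the part of these remaining stem cell transcripts in the EB differences was not tested.

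**Figure D3:**
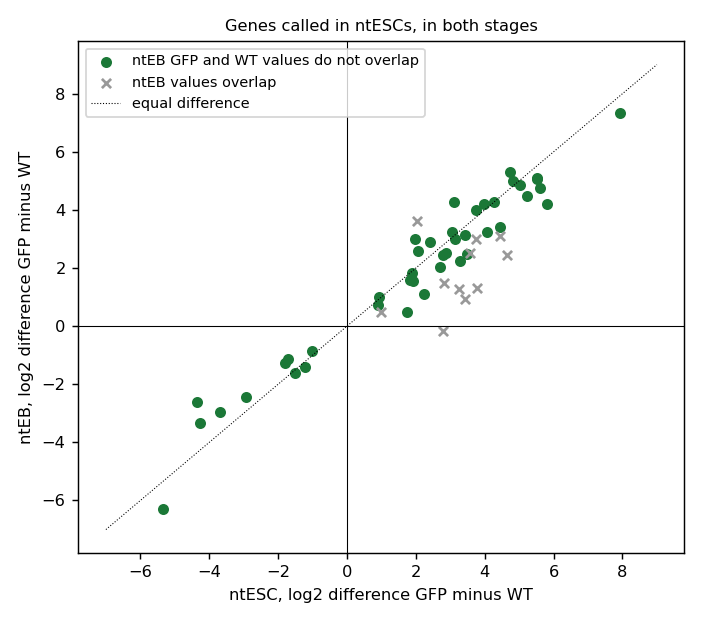
Log2 difference GFP minus WT of the 54 called genes found in both tables, in ntESCs (horizontal) and in ntEBs (vertical), with a dotted line of equal difference. Green circles mark the 43 genes whose EB values do not overlap between the groups and grey crosses the other 11. Of the 54 genes, 53 have the same sign in both stages.

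Each control ESC line was nearer WT than GFP for most of these genes. On the log2 scale, control #13 was nearer the WT mean for 30 of the 57 (52.6%, against 36.1% of all genes tested), #15 for 33 (57.9%, against 39.1%), #17 for 38 (66.7%, against 47.3%) and #37 for 35 (61.4%, against 53.1%). All 4 control lines were nearer WT for 16 genes (28.1%, against 14.8% of all genes), among them ITIH1, MTSS1, BOLA1, OGFOD1, S100P and LOC100401954, and all 4 were nearer GFP for 9 (15.8%, against 23.8%), among them CNFN and GSTZ1. For the remaining 32 (56.1%, against 61.4% of all genes) control lines lay on both sides. The called genes also varied more among the controls: on the same log2 scale, the highest and the lowest control line were 4-fold or more apart for 27 of 57 (47.4%), against 8.03% of all genes tested. The called genes are mostly low and mostly LOC genes, and they were not compared with genes of equal level. The wild-type donor fibroblasts were nearer WT for 49 (86.0%, against 65.2% of all genes), and for 17 of the 23 called genes at 1 TPM or more in the fibroblasts (73.9%, against 64.5% of all such genes).

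Of the pathway and cell type lists, chosen with earlier results of these data known, 1 of 788 tested members was called, PIWIL1. Over all genes tested, 0.352% were called. The remaining list results are therefore levels and differences that did not pass. Among 28 pluripotency genes, 25 were above 0 in log2 difference and the median was 1.01, and 12 (42.9%) had an unadjusted p below 0.05 in that direction, against 10.3% of all genes. FGF4, the growth factor that POU5F1 and SOX2 drive, was at 18.0, 24.6, 77.5 and 33.6 TPM in GFP lines, against 2.81, 3.44 and 14.3 TPM in WT lines (adjusted p = 0.179). UTF1, a chromatin factor of pluripotent cells, was at 100.5, 90.6, 202 and 123 TPM in GFP lines, against 19.6, 33.1 and 90.9 TPM in WT lines (adjusted p = 0.229). SOX2, the partner of POU5F1, was at 179, 248, 342 and 275 TPM in GFP lines, against 41.4, 71.1 and 246 TPM in WT lines (adjusted p = 0.250). WT #61 lay at or near the GFP lines for each, and WT #30 and #53 below all of them. Summed over the list, the level was 10408 to 15355 TPM in GFP lines and 6416, 6338 and 12195 TPM in WT lines, with 11293 to 14280 TPM in controls.

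Genes of naive pluripotency and the early embryo had a median of 0.95, with 13 of 18 above 0. KLF17, a transcription factor of the human early embryo, was nearest to a call: 7.14, 5.11, 21.7 and 13.6 TPM in GFP lines, against 0.391, 0.180 and 1.60 TPM in WT lines (log2 difference 4.06, standard error 0.71, adjusted p = 0.0784), with control lines from 0.288 to 11.8 TPM. FGFR4, a receptor for fibroblast growth factors, was on the other side at 23.9 to 27.3 TPM in GFP lines and 31.3 to 47.5 TPM in WT lines (adjusted p = 0.205). Germline and piRNA pathway genes had the highest list median in the main fit, 1.33, with 14 of 15 above 0. Of the 15, 8 (53.3%) had an unadjusted p below 0.05 in that direction, against 10.3% of all genes. This rank depends on the filter, which kept 15 of 24 genes. Without it the germline median was 0.77, below the naive (1.15) and pluripotency (1.01) lists. With quantile normalization it was 0.97, against 1.00 for pluripotency. After PIWIL1 came BRDT, a testis bromodomain protein, at 8.69, 6.90, 31.8 and 15.3 TPM in GFP lines, against 2.08, 1.56 and 3.88 TPM in WT lines (adjusted p = 0.160). TDRD1, a Tudor scaffold of the piRNA pathway, was at 11.1 to 18.4 TPM in GFP lines and 3.27 to 10.2 TPM in WT lines (adjusted p = 0.207), and MAEL, another piRNA factor, at up to 6.85 TPM in GFP lines and up to 3.09 TPM in WT lines (adjusted p = 0.234).

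Lists of differentiated cells had medians below 0. The median was −0.49 for the primitive streak list (14 of 20 below 0) and −0.55 for the neural list (7 of 9). In both, the member with the lowest p was higher in GFP lines. FGF8, of the streak list, was at 10.1 to 13.6 TPM in GFP lines and 1.36 to 9.49 TPM in WT lines (adjusted p = 0.239). SOX10, of the neural list, was at 4.56 to 7.52 TPM in GFP lines and 0.914 to 2.87 TPM in WT lines (adjusted p = 0.160). Of 38 HOX genes with values, 22 reached the minimum mean of 0.5 TPM, which a low gene can reach through the lines where it is high. All 22 were below 0 (median −2.14), so this count depends in part on the filter. Without the filter the median of 38 HOX genes was −1.76. HOXC8, a patterning gene of the trunk, was at 0, 0.607, 0 and 0 TPM in GFP lines, against 3.39, 3.01 and 0.0648 TPM in WT lines (adjusted p = 0.276), and HOXB9 at 0.0419, 0.797, 0.113 and 0 TPM in GFP lines, against 2.76, 4.21 and 0.0448 TPM in WT lines (adjusted p = 0.338). For both, WT #61 was with the GFP lines and GFP #50 was the highest of its group. The list for amnion, surface ectoderm and trophoblast had a median of −1.21 (17 of 20 below 0), with GATA3, a transcription factor of trophoblast and amnion, at 12.5, 32.6, 3.86 and 9.35 TPM in GFP lines, against 149, 71.5 and 23.9 TPM in WT lines (adjusted p = 0.232). Endothelial, blood and macrophage genes had a median of −1.66 (13 of 15 below 0). ENG, the endothelial TGF-beta co-receptor endoglin, was at 7.95 to 15.8 TPM in GFP lines and 17.9 to 22.8 TPM in WT lines (adjusted p = 0.207), whereas SPI1, the myeloid factor PU.1, was at 1.20 to 3.84 TPM in GFP lines and 0.552 to 0.903 TPM in WT lines (adjusted p = 0.223).

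The mesenchymal and fibroblast list had members on both sides. Its median was −1.38, with 24 of 29 below 0 and a summed level of 2916 to 4832 TPM in GFP lines, against 10111, 13086 and 3112 TPM in WT lines. But the member with the lowest p, the collagen gene COL1A1, had the opposite sign, at 286, 205, 295 and 230 TPM in GFP lines, against 79.6, 129 and 107 TPM in WT lines (log2 difference 1.28, standard error 0.20, adjusted p = 0.0535), and the control lines, at 203 to 312 TPM, overlapped the GFP range. THY1, a fibroblast surface protein also found on stem cells, was at 27.3, 15.9, 15.5 and 19.2 TPM in GFP lines, against 4.58, 4.85 and 9.62 TPM in WT lines (adjusted p = 0.109). COL5A2, a fibril-forming collagen, was at 10.0 to 14.1 TPM in GFP lines and 23.1 to 45.7 TPM in WT lines (log2 difference −1.43, adjusted p = 0.0820), and COL1A2, the partner chain of COL1A1, was at 8.22 to 20.5 TPM in GFP lines and 72.0, 26.8 and 4.15 TPM in WT lines (adjusted p = 0.643). COL1A1, THY1 and COL5A2 had non-overlapping values with WT #61 on the WT side, unlike DCN.

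**Figure D4:**
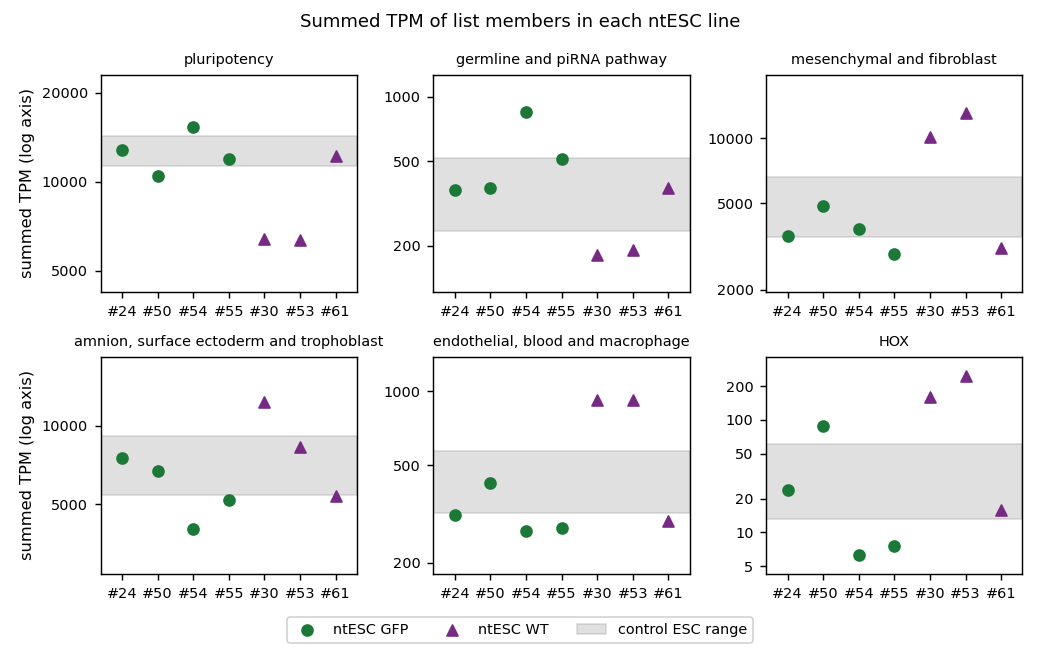
Summed TPM of 6 gene lists in each ntESC line on log axes, GFP lines as green circles and WT lines as purple triangles, with the range of the 4 control ESC lines in grey. WT #30 and #53 lie below the grey band for the pluripotency list (6416 and 6338 TPM) and above it for the mesenchymal list (10111 and 13086 TPM), while WT #61 lies near the GFP lines in all 6 panels.

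These list differences rest on WT #30 and #53. Without WT #61, where 9.3% of all genes were called higher and 8.99% lower in GFP lines, 18 of 28 pluripotency, 5 of 18 naive and early embryo (with 1 lower) and 5 of 15 germline genes were called higher, and 17 of 29 mesenchymal (with 3 higher), 9 of 23 HOX, 9 of 15 endothelial and blood, and 5 of 20 amnion and trophoblast genes (with 1 higher) were called lower in GFP lines. The same fit called 2 of 20 primitive streak genes higher and 1 lower, and 2 of 9 neural genes higher and 3 lower. Without WT #30 and #53, which leaves 1 WT line, the medians were 0.03 for pluripotency, 0.30 for the germline list and 0.26 for the mesenchymal list. They were 0.97 for HOX and 0.09 for both the endothelial and the amnion lists, and 0.36 for the primitive streak and 0.98 for the neural list. The filter was applied anew to these lines, so the sets differ: 12 HOX, 17 germline, 13 endothelial and blood, 18 primitive streak and 8 neural genes. For the lists described next, the fit without WT #61 called lower 14 of 33 adhesion genes (with 3 higher), 11 of 36 NODAL, TGF-beta and BMP genes (2 higher), 10 of 40 WNT genes (2 higher), 7 of 27 stress response genes, 7 of 22 imprinted genes, 6 of 22 p53 targets (1 higher) and 2 of 25 sterol and fatty acid genes. It called higher 6 of 33 oxidative phosphorylation genes (1 lower), 6 of 34 mitotic (2 lower), 5 of 27 Polycomb and Trithorax (2 lower), 4 of 33 FGF, MAPK and IGF (3 lower), 4 of 23 H3K9 methylation (1 lower) and 2 of 15 DNA methylation genes (3 lower), and 0 ribosomal protein or mitochondrially encoded genes in either direction.

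Signalling and adhesion genes had smaller medians below 0. They were −0.67 for cadherins and cell adhesion, −0.57 for NODAL, TGF-beta and BMP signalling and −0.45 for WNT signalling, against 0.06 for FGF, MAPK and IGF signalling. ITGA1, the integrin alpha-1 chain that binds collagen, was at 14.6, 23.8, 5.82 and 10.3 TPM in GFP lines, against 87.0, 82.0 and 29.1 TPM in WT lines (adjusted p = 0.167), and ITGA4, the alpha-4 chain, at 0.965 to 2.49 TPM in GFP lines and 0.356 to 0.476 TPM in WT lines (adjusted p = 0.173). The antagonist GREM1, which blocks BMPs, was at 44.8 to 64.5 TPM in GFP lines and 76.2 to 115 TPM in WT lines (adjusted p = 0.174). TCF7L2, a nuclear effector of WNT signals, was at 3.57 to 9.57 TPM in GFP lines and 11.7 to 17.4 TPM in WT lines (adjusted p = 0.196).

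Among metabolic lists the nuclear-encoded subunits of oxidative phosphorylation had 27 of 33 members above 0 and a small median, 0.14. NDUFB9, a complex I subunit, was at 893, 963, 1068 and 971 TPM in GFP lines, against 414, 521 and 644 TPM in WT lines (log2 difference 0.91, standard error 0.15, adjusted p = 0.0729), and the control lines, at 547 TPM and above, did not pass the highest WT line. NDUFB10, of the same complex, was at 181 to 213 TPM in GFP lines and 86.4 to 125 TPM in WT lines (adjusted p = 0.0729). The 13 mitochondrially encoded genes had a median of 0.05 and 0 at an unadjusted p below 0.05, against 17.9% of all genes. Sterol and fatty acid synthesis genes had a median of −0.28 (18 of 25 below 0), with the fatty acid elongase ELOVL6 at 46.2 to 69.2 TPM in GFP lines and 82.2 to 113 TPM in WT lines (adjusted p = 0.217). Genes of amino acid stress and the unfolded protein response had a median of −0.42 (24 of 27 below 0), with XBP1, a transcription factor of that response, at 89.3 to 119 TPM in GFP lines and 127 to 143 TPM in WT lines (adjusted p = 0.229).

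**Figure D5:**
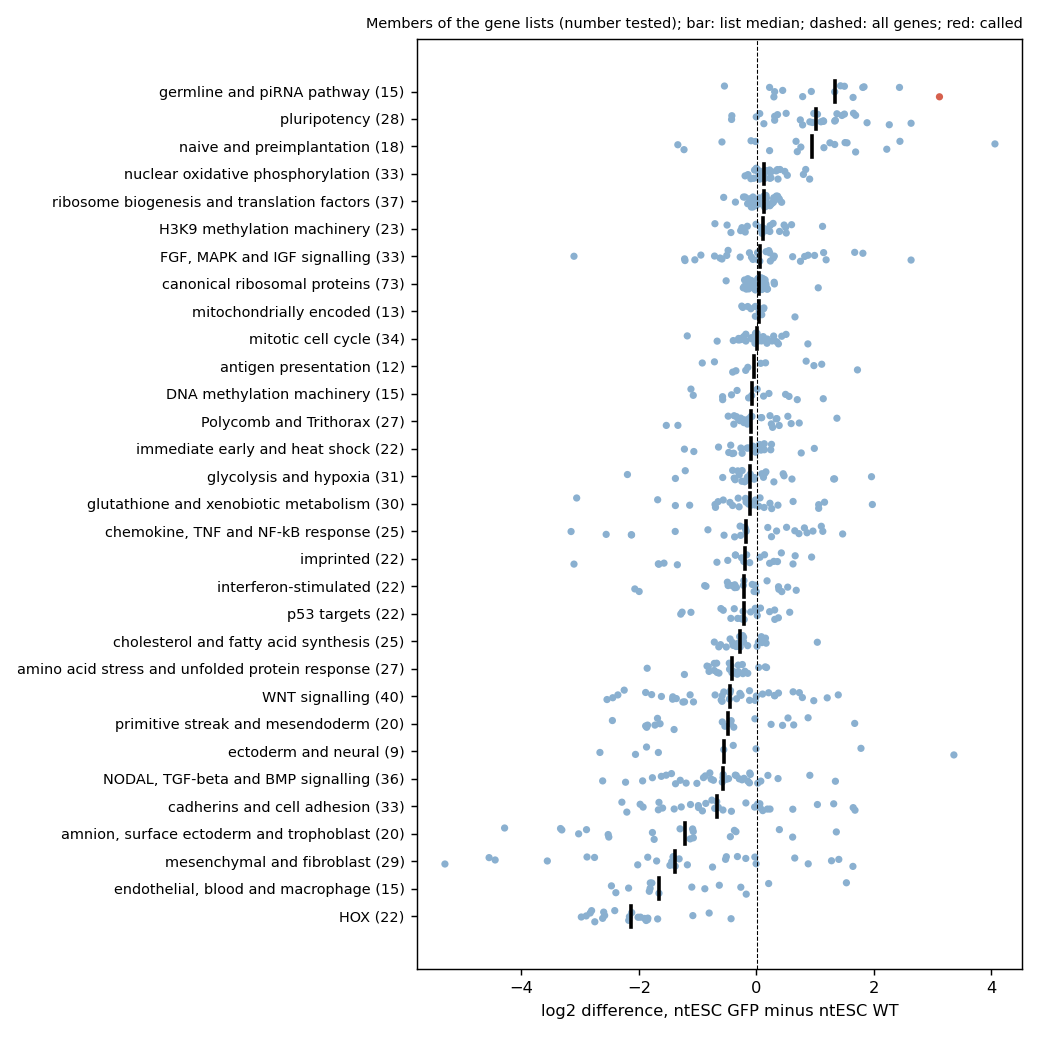
Log2 difference GFP minus WT of each tested member of the 31 lists with 9 or more tested members, 1 point per gene, with the list median as a black bar and the median of all genes as a dashed line. With the filter of 0.5 TPM, medians run from −2.14 for HOX to 1.33 for the germline and piRNA list, whose member PIWIL1 is the single called gene, in red.

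Lists of general cell functions were centred near the median of all genes. Medians were 0.05 for 73 ribosomal protein genes, 0.02 for 34 mitotic genes, −0.08 for the DNA methylation machinery, −0.09 for Polycomb and Trithorax genes and −0.22 for p53 targets. In the H3K9 methylation machinery, the system that the embryo treatment was aimed at, the median was 0.12. By limma over all 7 lines 0 of 23 genes were called, against 0.352% of all genes. At an unadjusted p below 0.05, 2 were higher (8.70%, against 10.3% of all genes) and 1 lower (4.35%, against 7.56%). By this measure the shares were no higher than those of all genes. GFP values were all above WT in 4 of 23 (against 8.75% of all genes) and all below in 1 of 23 (against 4.85%). Without WT #61, 4 of 23 were called higher (against 9.3%) and 1 lower (against 8.99%). EHMT2, which encodes G9a, was at 214, 150, 278 and 196 TPM in GFP lines, against 63.8, 73.7 and 174 TPM in WT lines (log2 difference 1.13, standard error 0.35, adjusted p = 0.232), and TRIM28, a co-repressor that recruits H3K9 methylation, at 885 to 1177 TPM in GFP lines and 569 to 817 TPM in WT lines (log2 difference 0.60, adjusted p = 0.192). Imprinted genes had a median of −0.19, with 0 of 22 called by limma over all 7 lines. At an unadjusted p below 0.05, 2 were lower (9.09%, against 7.56% of all genes). SGCE, a paternally expressed sarcoglycan, was at 15.9 to 18.5 TPM in GFP lines and 36.8, 32.0 and 17.0 TPM in WT lines (adjusted p = 0.256).

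The symbols next in order of p on the lower side did not pass. COL18A1, the basement membrane collagen from which endostatin is cut, was at 121, 139, 147 and 104 TPM in GFP lines, against 374, 272 and 229 TPM in WT lines (log2 difference −1.17, standard error 0.19, adjusted p = 0.0650). BTG2, an antiproliferative p53 target, was at 103, 102, 94.4 and 107 TPM in GFP lines, against 159, 146 and 157 TPM in WT lines (log2 difference −0.60, adjusted p = 0.0525). MRPS27, of the mitochondrial ribosome, was at 51.4, 51.4, 35.6 and 49.9 TPM in GFP lines, against 84.9, 85.5 and 87.3 TPM in WT lines (adjusted p = 0.0757). For these 3 genes the control lines, at 287 to 413, 133 to 173 and 72.8 to 93.0 TPM, were above every GFP line. EDEM1, of the disposal of misfolded proteins in the endoplasmic reticulum, TMEM44, PIGBOS1, CCNJL and ERGIC2 had log2 differences of −0.75 to −1.30 with adjusted p = 0.0702 to 0.108.

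Single lines carried large differences of their own, which have no replicate. Counting genes in which a line was at least 1 log2 unit outside the other 6 gave 90, 35, 563 and 72 genes for GFP #24, #50, #54 and #55, against 901, 367 and 121 for WT #30, #53 and #61. The median standard deviation within a group was 0.26 log2 units in GFP and 0.35 in WT lines over all genes, but 0.35 in GFP and 0.32 in WT lines for the called genes. The largest single gap was that of LOC100394437, at 324 TPM in WT #30, against 0 to 0.333 TPM in the other 6 lines. TERB2, which tethers telomeres in meiosis, was at 3.98, 48.3, 48.7 and 46.8 TPM in GFP lines and at 23.4, 0 and 60.4 TPM in WT lines. DLX5, a homeobox gene of skeleton and surface ectoderm, had the widest range in the GFP group, with 0.898, 17.0, 0 and 1.60 TPM in GFP lines and 102, 30.1 and 5.24 TPM in WT lines. LOC100408305 set WT #61 apart, with 38.9 to 55.9 TPM in the other 6 lines and 0.953 TPM in WT #61.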

How the data were processed

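RNA-seq libraries of 4 ntESC GFP and 3 ntESC WT lines were compared. The authors made stranded poly(A) libraries, trimmed reads with fastp, mapped them to calJac4 with STAR (1 location, at most 1 mismatch), counted them with featureCounts and deposited TPM without the sex chromosomes. For the annotation, the strand setting and the sequencer of each library nothing was given in the sources used here. Intervals for counting error were not computed, since TPM keeps no depth. From the deposited TPM, log2(TPM + 0.1) was tested with limma 3.58.1 (R 4.3.3, lmFit and eBayes with trend, GFP minus WT) over genes averaging 0.5 TPM or more across the 7 lines, after 3 genes on X or Y in calJac240_pri were dropped, and p-values were Benjamini-Hochberg adjusted at 0.05. Fold changes on this scale understate those of low genes. RefSeq of calJac240_pri served for names and gene types only (19603 of 22330 matched), and per-chromosome values were not computed. The test was checked on simulated data. No 2 libraries were identical. Levels in EBs come from a separately scaled table. Other values came from Python 3.11.15, numpy 2.4.6, pandas 2.3.3 and matplotlib 3.10.9.

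The comparison, the 32 gene lists and their order were chosen with earlier results of these data known. Named genes were the 12 largest differences with a symbol in each direction (filled by p), 3 LOC genes in each direction, the 2 members of each list with the lowest p, on-off genes, fixed markers, and genes of single lines, from which examples are given. EPCAM, BRDT, TDRD1 and MAEL were named in addition, outside these rules. Alternatives were other pseudocounts, filters, normalization, fits and left-out lines. One called gene is counted but not reported here.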

Additional observations from a re-analysis of the deposited data

Results flagged for a closer look

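Among 72 named or called genes, 8 had 1 GFP line far from the other 3 by Dixon's test in a group of 4, where chance flags about 1 in 20 groups. GFP #54 stood apart with 35.6 TPM of MRPS27 (others 49.9 to 51.4), 42.2 TPM of ERGIC2 (56.8 to 59.0), 3.97 TPM of LOC100385876 (3.09 to 3.13) and 2.95 TPM of LOC100387375 (1.09 to 1.18). GFP #50 stood apart with 0.214 TPM of S100P (0 in the others) and 8.93 TPM of CCNJL (6.57 to 6.84), and GFP #24 with 64.9 TPM of LOC100386994 (106 to 108) and 2.45 TPM of LOC108592998 (1.31 to 1.43). For S100P the flag says nothing, since with the other 3 lines at 0 any value above 0 is flagged. The share of flagged genes over all genes tested is not given here. The WT group of 3 was too small for this test.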

How the results depend on the processing

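Against 57 calls, the count was 35 with a minimum mean of 2 TPM (35 shared), 89 with the control lines in the fit (33 shared) and 5153 with array weights. Leaving out 1 line gave 18 (GFP #55) to 2964 (WT #61) calls: 24 without GFP #24, 28 without #50, 22 without #54, 51 without WT #30 and 21 without #53. Without both WT #30 and #53, added after seeing the data, it was 33. Other pseudocounts gave 48 each, quantile normalization 46, no filter 69 and no trend 68. Of the 57, 8 were called under all 15 other settings chosen at the outset (LOC100401954, LOC100389031, LOC103795690, LOC100386401, LOC100386618, LOC103790833, BOLA1 and LOC118142887), and 0 changed sign. The cause was not tested. The unknown depth limits above all the low genes. No paired analysis was possible because GFP and WT lines share no line numbers.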
